A study of Mus musculus with 8 samples.

Results

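The replication-dependent histone genes supply the histone proteins that package newly copied DNA. Here they are every gene whose symbol starts with Hist1h, Hist2h, Hist3h or Hist4h, which gave 68 of the 23284 genes counted. By the class letters in their symbols, 6 encode the linker histone H1, 18 encode H2A, 19 encode H2B, 12 encode H3 and 13 encode H4. The rule used names alone and no measured value. It also takes in Hist1h1t, Hist1h2aa and Hist1h2ba, known as testis histone genes, and the pseudogene Hist3h2bb-ps. RNA sequencing read counts were given for 4 MaxKO and 4 Ctrl libraries of preSC cells, which are precancerous neuroendocrine lung cells of the mouse. All 8 derive from mixed 129/SvJ and C57BL/6 mice with a Chga-GFP reporter and floxed Rb, p53 and p130 alleles (Rblox/lox, p53lox/lox and p130lox), so the controls share these alleles with the knockouts. The MaxKO cells received a guide RNA against Max, the obligate dimer partner of the MYC proteins, and the Ctrl cells a control guide. Both are puromycin-selected polyclonal populations rather than single clones, and no further treatment was given. Whether the 4 libraries of each group stem from separate cultures is not stated in the labels. The p-values therefore measure the spread between libraries, which may be technical.

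Histones H2A, H2B, H3 and H4 form the protein core around which DNA is wound, and H1 binds the DNA between cores. Most of these genes lie in clusters, are transcribed in S phase under the co-activator NPAT, and give short transcripts that end just after a conserved stem-loop instead of in a poly(A) tail. The stem-loop is bound by SLBP, and the transcripts are degraded when DNA synthesis stops. Some genes of the family can also give transcripts that run past the stem-loop and are polyadenylated. How such genes are counted therefore depends on the RNA selection of the library, which is not given in the sources used here. In bulk RNA, fewer cells making a transcript and less of it per cell cannot be told apart.

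The stem-loop sequences are shown first because they define the family and mark where most of its transcripts are known to end. In GENCODE M21 transcripts, matched by symbol for all 68 genes, a 16-base stem-loop was found in 46. Some of the other 22 are annotated for little beyond the coding sequence, such as Hist1h2bn with 378 coding bases of 381. A missing match there need not mean a missing stem-loop. The same search found the stem-loop in 40 of 55273 other genes (0.0724%). The commonest form was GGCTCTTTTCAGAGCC, found in 26 genes, followed by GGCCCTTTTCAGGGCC in 7 and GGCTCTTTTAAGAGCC in 6. The transcripts differed mainly in how far the annotation runs past this element. Capitals below mark the stem-loop and lower case the 5 bases on either side, 5′ to 3′ on the transcript strand.
Hist1h1c: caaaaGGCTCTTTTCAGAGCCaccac
Hist3h2a: ccaaaGGCTCTTTTCAGAGCCaccca
Hist3h2ba: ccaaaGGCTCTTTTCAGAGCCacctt
Hist2h3c1: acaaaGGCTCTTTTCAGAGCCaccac
Hist1h4i: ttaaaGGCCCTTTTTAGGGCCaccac
Hist1h4h: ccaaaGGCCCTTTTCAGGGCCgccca
Hist4h4: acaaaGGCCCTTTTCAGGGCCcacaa
Hist1h3a: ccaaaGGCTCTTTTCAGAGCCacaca
The Hist1h1c and Hist3h2a stem-loops have the same 16 bases as that of Hist1h3a, but their annotated transcripts run on for 840 and 1643 bases, against 37 bases for Hist1h3a. Hist1h4h ends 46 bases after its stem-loop, Hist1h4i 330 bases and Hist4h4 2445 bases. The polyadenylation signal AATAAA lies in the last 50 bases of 11 of the 68 transcripts, among them Hist1h1c, Hist3h2a, Hist3h2ba, Hist2h2be, Hist2h3c1 and Hist4h4.

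Promoters are shown because the family is known to be switched on together. RefSeq promoter windows (GRCm38.p6, from 250 bases before to 50 after the start) were matched for 61 of the 68 genes. The 300-base windows were searched on both strands for 4 motifs. CACGTG, the E-box that MYC and MAX dimers are known to bind, was in 0 of 61 histone windows and in 8.11% of 26964 other genes. CCAAT was in 85.2% of histone windows against 41.0% of the others, and TATAAA in 57.4% against 15.6%. ATTTGCAT, the octamer bound by POU2F1, was in 23.0% against 1.92%. By class, CCAAT was in every H1, H2A, H2B and H3 window matched but in 3 of 12 H4 windows, and the octamer was in 7 of 17 H2A and 7 of 16 H2B windows and in none of the other classes. The windows are not independent, since 9 pairs of an H2A and an H2B gene start back to back with 164 to 281 bases between their starts. A match describes letters in the window and not binding.
In the 250 bases before the start of Hist1h1c (RefSeq H1f2, plus strand, chr13:23738557-23738806), the capitals mark CCAAT.
Hist1h1c: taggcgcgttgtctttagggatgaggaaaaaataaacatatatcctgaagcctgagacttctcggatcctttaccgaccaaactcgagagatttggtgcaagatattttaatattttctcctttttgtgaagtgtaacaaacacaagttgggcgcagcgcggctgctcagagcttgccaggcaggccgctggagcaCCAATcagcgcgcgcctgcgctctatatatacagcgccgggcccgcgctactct
In those of Hist1h2bg (RefSeq H2bc8, plus strand, chr13:23571150-23571399), they mark CCAAT on either strand, the octamer and TATAAA, and Hist1h2ae starts 180 bases away in the opposite direction.
Hist1h2bg: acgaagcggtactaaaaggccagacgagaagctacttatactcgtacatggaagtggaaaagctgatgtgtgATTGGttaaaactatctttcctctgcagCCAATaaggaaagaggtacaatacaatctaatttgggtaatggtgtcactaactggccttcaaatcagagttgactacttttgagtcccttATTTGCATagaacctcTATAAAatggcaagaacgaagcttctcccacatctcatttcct
In those of Hist1h4h (RefSeq H4c8, plus strand, chr13:23530794-23531043), none of the 4 motifs was found.
Hist1h4h: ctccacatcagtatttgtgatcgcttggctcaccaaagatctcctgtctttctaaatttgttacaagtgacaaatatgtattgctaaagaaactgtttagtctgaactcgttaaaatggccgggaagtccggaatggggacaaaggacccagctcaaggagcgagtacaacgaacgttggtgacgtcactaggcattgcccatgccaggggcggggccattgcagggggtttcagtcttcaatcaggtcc

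Gene totals ran from 13711278 to 19804949 reads in the Ctrl libraries and from 14952291 to 19480947 in the MaxKO libraries. Levels below are given as CPM, the count of a gene scaled to a common library total with TMM factors, and 3 reads correspond to 0.151 to 0.220 CPM. A guide RNA need not lower the transcript it targets, so Max RNA does not check the labels. It stood at 42.3, 42.3, 59.1 and 68 CPM in MaxKO 1 to 4 and at 65.5, 70.2, 75.2 and 61.9 CPM in Ctrl 1 to 4, with overlapping groups. All 9 neuroendocrine markers passed the filter, with summed levels from 6690 to 7560 CPM in MaxKO and from 5990 to 8110 CPM in Ctrl. Chgb (-0.37) and Dll3 (-0.51) were called lower in MaxKO and Uchl1 (0.41) higher, while Calca had the control order described below, at 1980, 1780, 399 and 467 CPM in Ctrl 1 to 4 and 524 to 589 CPM in MaxKO. Markers of other cells were low, with Cd68 at 2.32 to 5.34 CPM, Foxj1 at 2.19 to 3.96, Sftpc at 0.929 to 2.72, Ptprc at or under 0.12, and Emcn and Krt5 at 0 reads. The exception was the fibroblast list, at 49.3 to 65.8 CPM in MaxKO and 25.3 to 45.1 CPM in Ctrl. Nearly all of it was Dcn (called higher, 0.77, adjusted p = 0.0124), while Pdgfra was called lower (-2.37, adjusted p = 0.00423), Thy1 and Col1a1 were under 1 CPM and lower in every MaxKO library than in any Ctrl library, and Lum had 0 reads. In the share of reads outside exons, the Ctrl libraries stood apart in pairs. Ctrl 1 and 2 had 18.5% and 18.6% of uniquely placed reads outside annotated exons, Ctrl 3 and 4 had 23.3% and 23.4%, and the MaxKO libraries had 20.5% to 21.5%. Over the log levels of all tested genes, Ctrl 1 and 2 correlated at 0.995, but Ctrl 3 and 4 at 0.983, as did Ctrl 2 and 4. Ctrl 3 and 4 are thus a pair in that share and in the summed histone level given below, not across all genes. The labels give no batch. The class sums, the tested histone genes and the calls in the other gene lists are also given against each pair of controls.

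In summed level, histone genes as a whole did not separate MaxKO from Ctrl. The 68 genes took 7985, 6911, 7056 and 7996 reads in MaxKO 1 to 4, and 11498, 9896, 4355 and 5894 reads in Ctrl 1 to 4. Scaled, this was 417, 459, 478 and 510 CPM against 579, 595, 319 and 331 CPM. The means were 466 ± 39.1 CPM in MaxKO and 456 ± 152 CPM in Ctrl (SD, n = 4 each), a log2 ratio of 0.03. All 4 MaxKO libraries lay between the high pair, Ctrl 1 and 2, and the low pair, Ctrl 3 and 4. The highest control was 1.87 times the lowest, and the highest MaxKO library 1.22 times the lowest. Against Ctrl 1 and 2 the MaxKO mean was 0.794 of the control mean, and against Ctrl 3 and 4 it was 1.43 times it.

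H2B genes held 44.1% of the 61591 histone reads, H2A genes 28.7% and H1 genes 23.2%, while H4 genes held 2.58% and H3 genes 1.42%. H1 genes summed to 95.9, 115, 117 and 125 CPM in MaxKO 1 to 4 and to 132, 138, 65.2 and 67.3 CPM in Ctrl 1 to 4. H2A genes summed to 120, 135, 144 and 153 CPM against 157, 158, 94.7 and 101 CPM. H2B genes summed to 184, 196, 205 and 215 CPM against 261, 269, 143 and 151 CPM. In these 3 classes every MaxKO library lay below Ctrl 1 and 2 and above Ctrl 3 and 4. The MaxKO mean was 0.839 of that of Ctrl 1 and 2 for H1, 0.876 for H2A and 0.756 for H2B, and 1.71, 1.41 and 1.36 times that of Ctrl 3 and 4. The log2 ratios of means over all 4 controls were 0.17 for H1 (113 ± 12.4 against 101 ± 39.7 CPM), 0.11 for H2A (138 ± 13.9 against 128 ± 34.5 CPM) and -0.04 for H2B (200 ± 13.0 against 206 ± 68.4 CPM; SD, n = 4 each).

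H3 and H4 genes stood lower relative to the controls than the other classes did. H3 genes summed to 4.64, 3.85, 3.93 and 6.38 CPM in MaxKO 1 to 4 and to 10.7, 12.3, 5.12 and 4.49 CPM in Ctrl 1 to 4. H4 genes summed to 11.4, 8.76, 8.67 and 10.6 CPM against 18.1, 18.2, 11.1 and 7.29 CPM. In both classes the MaxKO libraries were below Ctrl 1 and 2 and overlapped the range of Ctrl 3 and 4. The log2 ratios of means were -0.79 for H3 (4.70 ± 1.18 against 8.15 ± 3.93 CPM) and -0.47 for H4 (9.86 ± 1.37 against 13.7 ± 5.42 CPM; SD, n = 4 each). With Ctrl 3 and 4 alone as controls the ratio was 0.978 for H3 and 1.08 for H4, and with Ctrl 1 and 2 alone 0.409 and 0.543. In raw reads these are small classes, with 58 to 212 H3 reads and 128 to 360 H4 reads a library, against 891 to 2625 for H1, 1294 to 3124 for H2A and 1949 to 5177 for H2B. No class separated the groups, and sums over a class carry no test here.

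**Figure D1:**
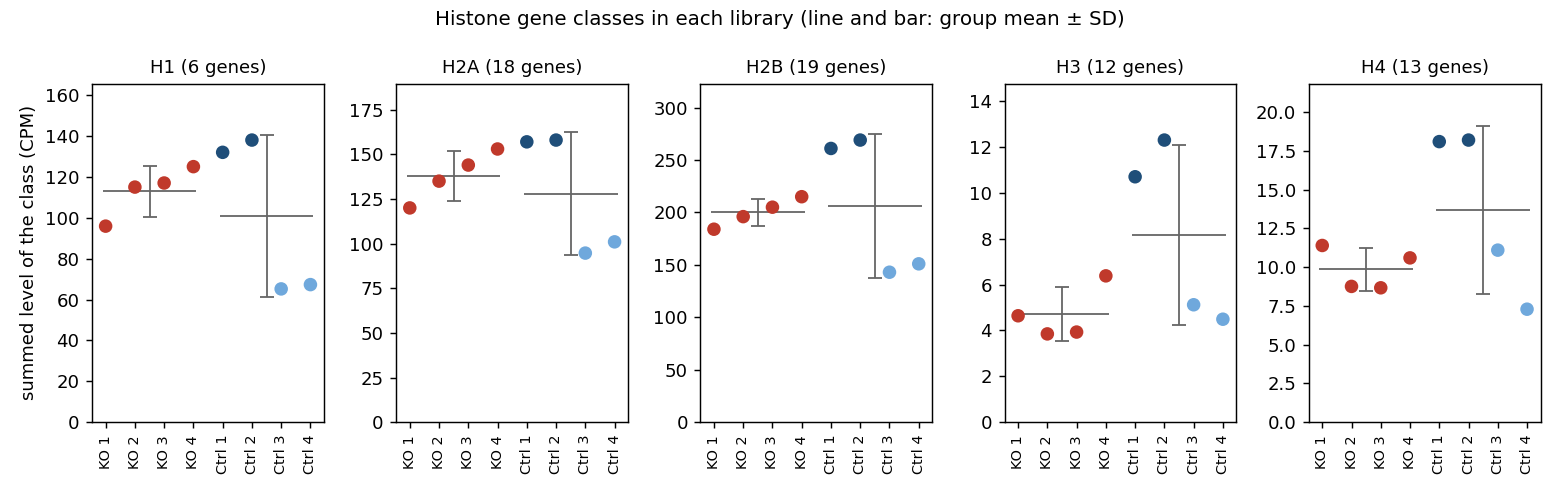
Summed level of each histone class (CPM, y axis from 0) in each library (x axis), with MaxKO in red, Ctrl 1 and 2 in dark blue and Ctrl 3 and 4 in light blue; grey lines and bars give group mean ± SD (n = 4). In the H1, H2A and H2B panels every MaxKO point lies between the dark and the light blue points, and in the H3 and H4 panels the MaxKO points lie near the light blue ones.

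None of the 19 histone genes that passed the low-count filter was called different between the 4 MaxKO and 4 Ctrl libraries by edgeR's quasi-likelihood test at a Benjamini-Hochberg adjusted p of 0.05. Over all 13358 genes tested, 23.1% were called (10.9% higher and 12.2% lower in MaxKO). At an unadjusted p of 0.05, Hist1h2bg and Hist2h3c1 passed, 2 of 19 against 35.5% of all genes, and DESeq2 and limma-voom also called 0. The 19 log2 fold changes ran from -1.20 to 0.25, with a median of -0.24 beside 0 over all genes, and none of the 19 had MaxKO and Ctrl values that did not overlap, against 26.4% of all genes tested. Among the histone genes under the filter, the groups did not overlap in 4, Hist1h2bb, Hist1h3d, Hist1h4k and Hist1h4a, all lower in MaxKO. These had 18, 27, 53 and 25 reads over the 8 libraries. At such depth this order can rest on a few reads a library. The share over all genes under the filter was not counted, so no result is drawn from it. The filter kept 5 H1, 4 H2A, 5 H2B, 2 H3 and 3 H4 genes, so the figures on the 19 describe the better-covered members and not all 68. The call was not the same under every choice of libraries. Without Ctrl 3, Hist1h2bg (-1.44) and Hist2h3c1 (-1.14) were called lower, 2 of 20 tested, beside 1929 lower and 1779 higher of all 13464 genes. Without Ctrl 4, Hist1h2bg (-1.40), Hist2h3c1 (-1.17), Hist1h2bc (-0.72) and Hist1h4h (-1.54) were called lower. These were 4 of 20 tested, beside 1897 lower and 1846 higher of all 13466 genes. With the percentage of reads falling outside exons added to the fit, Hist1h1c (0.32) and Hist2h2be (0.30) were called higher, and Hist1h2bc (-0.39), Hist1h2bg (-0.92) and Hist2h3c1 (-0.66) lower. In that fit 2256 of all 13358 genes were called higher and 2167 lower.

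Just 4 genes, one of them H1, one H2A and the other two H2B, held 82.5% of the histone reads. They were Hist3h2a with 14612 reads over the 8 libraries, Hist2h2be with 13115, Hist1h1c with 12455 and Hist3h2ba with 10604. Per kilobase of annotated transcript the order changed, with Hist3h2ba at 129 CPM, Hist1h1c at 59.9, Hist3h2a at 51.1 and Hist2h2be at 37.5. The H2A gene Hist1h2ak, whose annotated transcript is 393 bases long and holds almost only coding sequence, followed Hist3h2a at 43 CPM per kilobase. Hist1h2bc stood at 17.2 CPM per kilobase, the H4 genes Hist1h4i and Hist1h4h at 5.5 and 2.45, and the H3 gene Hist2h3c1 at 1.93. In Hist3h2a, 31% of the 50-base windows of the transcript also lie in Trim17, which itself had 4 to 15 reads a library.

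**Figure D2:**
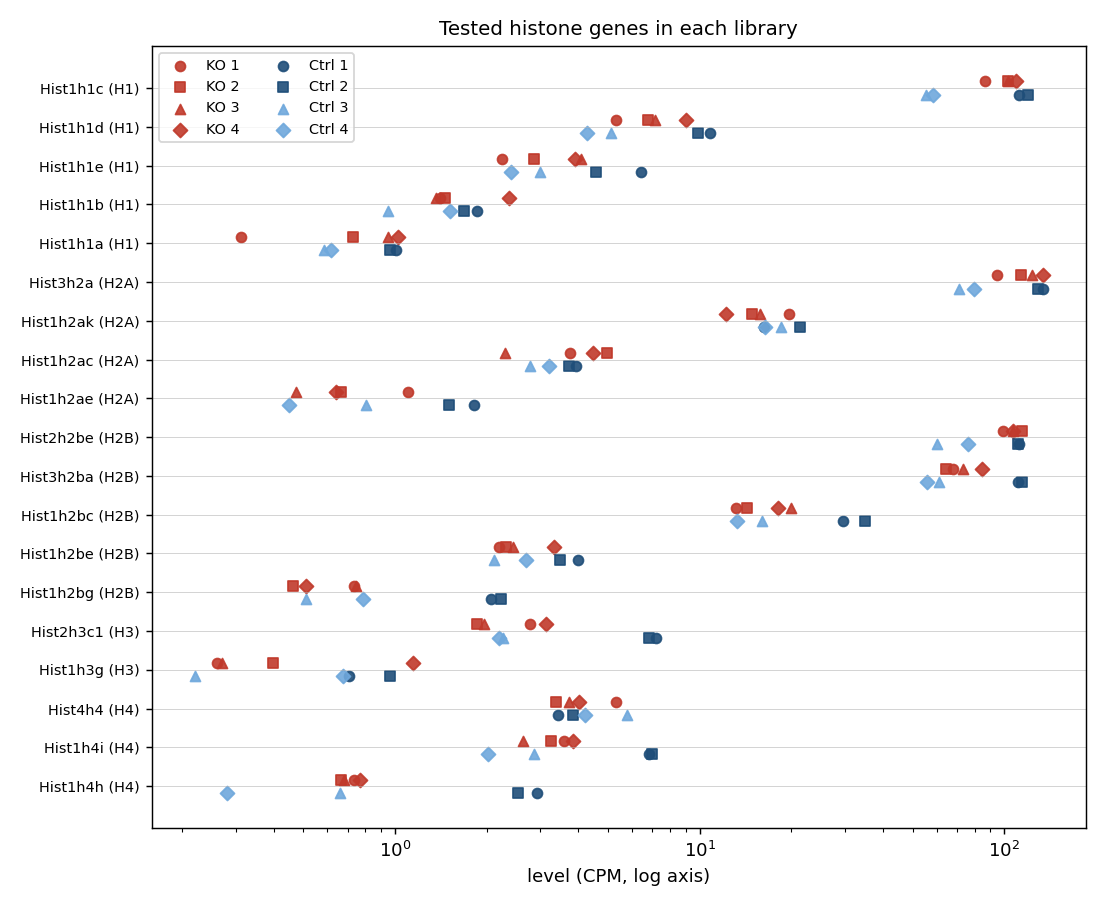
Level (CPM, log x axis) of each of the 19 tested histone genes (y axis, ordered by class) in each library, with colour and marker giving the library. Dark blue controls lie to the right of light blue controls in most genes, and Hist1h2ak and Hist4h4 do not show this order.

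Among linker histones, Hist1h1c held 87.3% of the class's reads. It stood at 86.6, 103, 103 and 109 CPM in MaxKO 1 to 4 and at 112, 120, 55.4 and 58.4 CPM in Ctrl 1 to 4. All MaxKO values lay below Ctrl 1 and 2 and above Ctrl 3 and 4. The log2 fold change over all controls was 0.21 (SE 0.23, edgeR quasi-likelihood, adjusted p = 0.566). Hist1h1d repeated this order at a lower level, with 5.32, 6.77, 7.11 and 9 CPM against 10.8, 9.86, 5.12 and 4.26 CPM and a log2 fold change of -0.10 (SE 0.29, adjusted p = 0.838). Hist1h1e stood at 2.24, 2.85, 4.07 and 3.89 CPM against 6.44, 4.57, 3.00 and 2.41 CPM (-0.35, SE 0.31, adjusted p = 0.456). Its MaxKO values lay below both high controls and overlapped the low ones. Hist1h1b had its highest value in MaxKO 4, at 2.36 CPM, with 1.36 to 1.46 CPM in the other MaxKO libraries and 0.952 to 1.86 CPM in Ctrl. Hist1h1a, from 0.313 to 1.02 CPM, and the testis gene Hist1h1t, with 25 reads in all, were the lowest of the class.

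Among H2A genes, Hist3h2a held 82.5% of the class's reads. It stood at 94.3, 113, 123 and 134 CPM in MaxKO 1 to 4 and at 134, 129, 70.9 and 79.8 CPM in Ctrl 1 to 4, a log2 fold change of 0.17 (SE 0.20, adjusted p = 0.602). MaxKO 4 reached the level of the high controls, and every MaxKO library was above both low ones. Hist1h2ak behaved differently from the sum of its class. It stood at 19.7, 14.9, 15.8 and 12.2 CPM in MaxKO and at 16.3, 21.3, 18.5 and 16.4 CPM in Ctrl, with a log2 fold change of -0.21 (SE 0.14, adjusted p = 0.344), and its controls were not ordered in pairs. Of its 50-base windows, 52.3% also occur in other histone genes, so its count depends on how reads of near-identical copies were placed. Hist1h2ac, at 2.30 to 4.98 CPM in MaxKO and 2.78 to 3.93 CPM in Ctrl, overlapped in full. Hist1h2ae, at 1.10, 0.664, 0.474 and 0.638 CPM against 1.81, 1.5, 0.805 and 0.449 CPM, was below Ctrl 1 and 2 in every MaxKO library (-0.66 over all controls, SE 0.43, adjusted p = 0.301).

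H2B reads were split between Hist2h2be (48.3% of the class), Hist3h2ba (39.0%) and Hist1h2bc (9.81%). Hist2h2be stood at 99.1, 114, 107 and 107 CPM in MaxKO 1 to 4 and at 112, 111, 60.3 and 76.2 CPM in Ctrl 1 to 4, a log2 fold change of 0.25 (SE 0.17, adjusted p = 0.338). The MaxKO mean of 107 CPM was thus near the high controls for this gene. Hist3h2ba stood at 67.8, 64.2, 73.3 and 84.3 CPM against 111, 114, 61.1 and 55.9 CPM (-0.24, SE 0.22, adjusted p = 0.479), and Hist1h2bc at 13.2, 14.3, 19.9 and 18.1 CPM against 29.5, 34.9, 16 and 13.3 CPM (-0.53, SE 0.28, adjusted p = 0.211). For both, MaxKO values were nearer to the low controls. Hist1h2be followed the same order with smaller gaps, at 2.19 to 3.32 CPM in MaxKO, 3.98 and 3.49 CPM in Ctrl 1 and 2, and 2.12 and 2.69 CPM in Ctrl 3 and 4. Hist1h2bg, the back-to-back partner of Hist1h2ae, had the largest negative fold change of the 19 genes. It stood at 0.731, 0.464, 0.745 and 0.510 CPM against 2.06, 2.23, 0.512 and 0.785 CPM, a log2 fold change of -1.20 (SE 0.45, unadjusted p = 0.0208, adjusted p = 0.0758). Its MaxKO values overlapped those of Ctrl 3 and 4, and it rests on 139 reads in all.

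The main H3 gene, Hist2h3c1, held 55.6% of the class's reads. It stood at 2.77, 1.86, 1.96 and 3.13 CPM in MaxKO 1 to 4 and at 7.20, 6.80, 2.27 and 2.19 CPM in Ctrl 1 to 4, a log2 fold change of -0.93 (SE 0.40, unadjusted p = 0.0407, adjusted p = 0.122). Ctrl 1 and 2 stood above all 6 other libraries, which overlapped. GENCODE places another gene, Gm20634, over all of its 50-base windows, so the count depends on the annotation used. Hist1h3g ranged from 0.261 to 1.15 CPM in MaxKO and from 0.220 to 0.962 CPM in Ctrl. The untested Hist1h3c ranged from 0.261 to 0.531 CPM in MaxKO and from 0.337 to 0.722 CPM in Ctrl. The untested Hist2h3c2 ranged from 0.199 to 0.447 CPM in MaxKO and from 0.0732 CPM, which is under the 3-read level, to 1.32 CPM in Ctrl.

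Among H4 genes, Hist4h4 and Hist1h4i held similar shares, 35.1% and 34.2% of the class's reads, with opposite orders among the controls. Hist4h4, the gene that lies alone on chromosome 6, stood at 5.32, 3.38, 3.73 and 4.02 CPM in MaxKO 1 to 4 and at 3.42, 3.85, 5.78 and 4.21 CPM in Ctrl 1 to 4 (-0.05, SE 0.21, adjusted p = 0.888). It alone of the 19 tested genes had a lower mean in Ctrl 1 and 2 than in Ctrl 3 and 4, with a ratio of 0.728. Hist1h4i stood at 3.60, 3.25, 2.64 and 3.83 CPM against 6.80, 6.98, 2.85 and 2.02 CPM (-0.49, SE 0.36, adjusted p = 0.364). Of the 19 tested genes, Hist1h4h had the widest spread among the controls, 2.92, 2.53, 0.659 and 0.281 CPM, a ratio of 10.4 between highest and lowest. That ratio rests on few reads, 58, 42, 9 and 5 in Ctrl 1 to 4, and Hist1h4h had 160 reads in all. Its MaxKO libraries were nearly level, at 0.731, 0.664, 0.678 and 0.766 CPM, a ratio of 1.15 (log2 fold change -1.19, SE 0.59, adjusted p = 0.175). The untested Hist1h4d stood at 0.522, 0.464, 0.542 and 0.447 CPM in MaxKO and at 1.16, 1.26, 0.512 and 0.112 CPM in Ctrl.

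The spread among controls was the largest feature of these genes. Over the 19 tested histone genes, the median ratio of highest to lowest control was 2.17, beside 1.32 over all tested genes. The same ratio among MaxKO libraries was 1.6 beside 1.19. These medians are not matched for level, and few reads alone widen such a ratio. In the 4 genes with the most reads it was 1.85 to 2.17 among controls and 1.15 to 1.42 among MaxKO libraries. The control pairs were set partly by the summed histone level. The counts and ratios by pair that follow therefore describe that order and do not test it. Both Ctrl 1 and 2 exceeded both Ctrl 3 and 4 in 17 of 19 histone genes, an order seen in 27.5% of all genes. The mean of Ctrl 1 and 2 was 1.44 to 2.20 times that of Ctrl 3 and 4 in H1 genes, 1.08 to 2.64 times in H2A, 1.55 to 3.30 times in H2B, 1.87 to 3.14 times in H3 and 0.728 to 5.80 times in H4. The median ratio was 1.92, beside 0.995 over all genes. In Hist1h1c, Hist1h1d, Hist3h2ba and Hist1h4h, all MaxKO libraries lay below Ctrl 1 and 2 and above Ctrl 3 and 4. That order held in 1.59% of all genes, and the reverse order in 1.43% and in none of the 19.

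Set against each control pair alone, MaxKO histone genes were lower or higher depending on the pair. Both comparisons use the same 4 MaxKO libraries, the pairs differ in histone level itself, and p-values therefore show only how the calls depend on the controls kept. Against Ctrl 1 and 2, 13 of 21 histone genes tested were called lower and 0 higher (edgeR quasi-likelihood test, adjusted p under 0.05), beside 44.6% of all genes called, 22.6% lower and 22.0% higher. They were 3 of 5 H1 genes, 1 of 4 H2A, 5 of 6 H2B, 1 of 2 H3 and 3 of 4 H4. The largest differences were -1.93 for Hist1h4h (SE 0.25, adjusted p = 7.05e-06), -1.78 for Hist1h2bg (SE 0.28, adjusted p = 6.33e-05) and -1.51 for Hist2h3c1 (SE 0.19, adjusted p = 4.32e-06). Hist1h2ae (-1.17), Hist1h4i (-1.04), Hist1h2bc (-0.99), Hist1h1e (-0.79), Hist3h2ba (-0.64), Hist1h1d (-0.56), Hist1h2be (-0.55) and Hist1h1c (-0.21) were also called. The remaining calls, Hist1h4d (-1.28) and Hist2h2bb (-0.94), were under the low-count filter with all 8 libraries. The abundant Hist2h2be (-0.06, SE 0.07, adjusted p = 0.484) and Hist3h2a (-0.18, SE 0.10, adjusted p = 0.151) were not called.

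Against Ctrl 3 and 4, 3 of 20 histone genes tested were called higher and 0 lower, beside 20.7% of all genes called, 9.39% higher and 11.3% lower. All 3 are among the 4 most abundant members. They were Hist1h1c (0.81, SE 0.10, adjusted p = 0.000197), Hist2h2be (0.63, SE 0.11, adjusted p = 0.00124) and Hist3h2a (0.61, SE 0.13, adjusted p = 0.00495). Hist3h2ba (0.30, SE 0.11, adjusted p = 0.0784) and Hist1h1d (0.58, SE 0.21, adjusted p = 0.0735) were not called. Hist1h1e (0.26), Hist1h2ae (0.26), Hist1h4i (0.46), Hist1h4h (0.64) and Hist1h2be (0.07) were not called either. The estimates for Hist1h2bg (-0.11, SE 0.40), Hist2h3c1 (0.13, SE 0.27) and Hist1h2bc (0.15, SE 0.17) were smaller than their standard errors. Hist1h2ak, whose controls were not ordered in pairs, gave -0.25 against Ctrl 1 and 2 and -0.16 against Ctrl 3 and 4. Hist4h4, whose controls had the reverse order, gave 0.20 and -0.27. Neither gene was called. The low genes Hist1h1b (-0.12 and 0.38), Hist1h1a (-0.43 and 0.28), Hist1h2ac (0.02 and 0.36) and Hist1h3g (-0.68 and 0.12) were called in neither comparison.

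**Figure D3:**
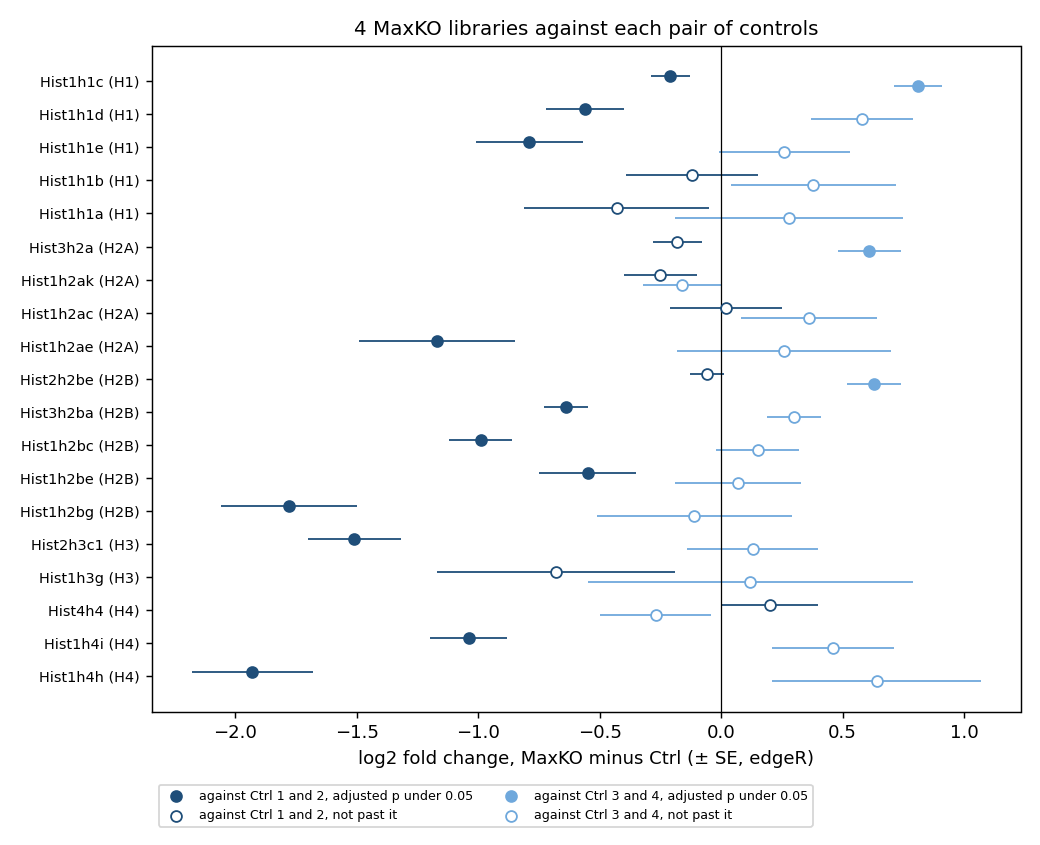
Log2 fold change ± SE (x axis, edgeR) of the 19 tested histone genes (y axis) in the 4 MaxKO libraries against Ctrl 1 and 2 (dark blue) and against Ctrl 3 and 4 (light blue), with filled points past an adjusted p of 0.05. Most dark points lie left of 0, most light ones right of it, and the filled light points are Hist1h1c, Hist3h2a and Hist2h2be.

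Reads were concentrated on 4 genes, all with an annotated polyadenylation signal. The 11 genes with AATAAA in the last 50 bases held 84.5% of histone reads and the other 57 held 15.5%. Of the 11, however, those 4 alone held 82.5% of histone reads. The remaining genes with AATAAA had from 13 reads (Hist2h4) to 557 reads (Hist4h4) over the 8 libraries. Genes annotated for more than 100 bases past the stem-loop (23 genes) held 68.5%, those ending within 100 bases of it (23 genes) 1.11%, and those with no stem-loop match (22 genes), Hist2h2be among them, 30.4%. Per kilobase the medians were 0.980, 0.387 and 0.411 CPM, so most of that contrast in reads lay in a few genes. Some transcripts without a match are annotated for little beyond the coding sequence, so that set is not a class of transcript end. The 23 genes ending near the stem-loop summed to 3.39, 3.58, 4.20 and 4.72 CPM in MaxKO 1 to 4 and to 7.40, 8.90, 5.56 and 3.09 CPM in Ctrl 1 to 4. The 11 genes with AATAAA summed to 357, 400, 413 and 443 CPM against 482, 488, 257 and 278 CPM. Both sets were higher in Ctrl 1 and 2 than in any MaxKO library. Against Ctrl 3 and 4, the AATAAA set was higher in every MaxKO library, while the short-ended set overlapped.

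**Figure D4:**
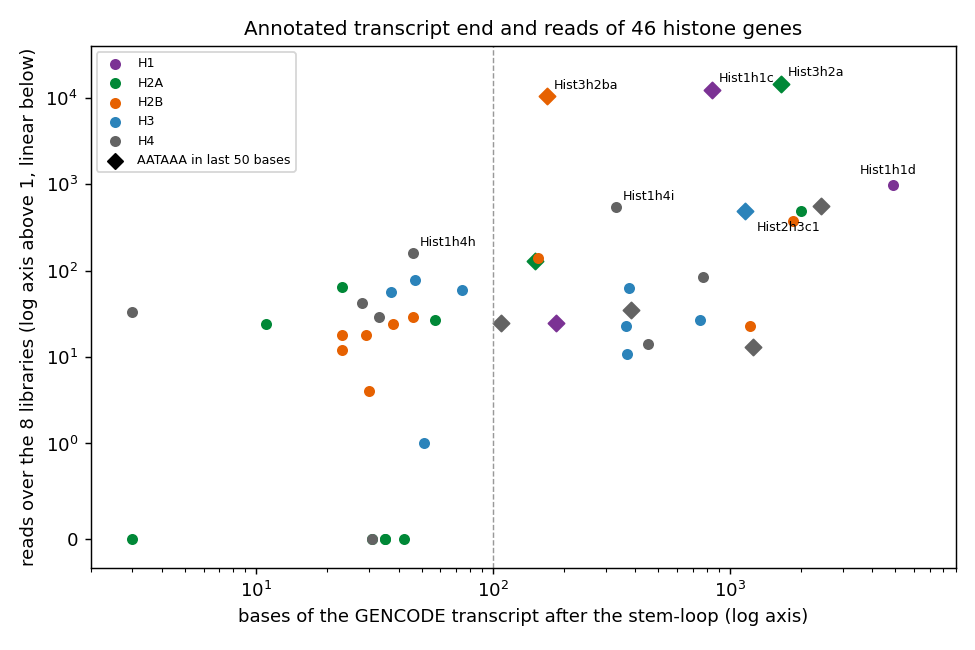
Total reads over the 8 libraries (y axis, log above 1 read and linear below) of the 46 histone genes with a stem-loop, against the bases of the GENCODE transcript after it (log x axis), with colour for class and diamonds for AATAAA in the last 50 bases. The dashed line is at 100 bases; the 3 genes with the most reads, Hist3h2a, Hist1h1c and Hist3h2ba, are all diamonds to its right.

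Most members were little covered. Outside the 19 tested genes, 41 had 1 to 86 reads over the 8 libraries and together 1151 reads (1.87% of histone reads), and 8 had none. With 0 reads, up to 3 reads a library, or 0.151 to 0.220 CPM, cannot be told from none. The 8 are Hist1h2ad, Hist1h2ao, Hist1h2ap, Hist2h2aa1, Hist2h2aa2, Hist1h2bq, Hist1h2br and Hist1h4n. In each, 67.1% to 100% of 50-base windows also occur in other histone genes, and 7 of them have a coding sequence identical to that of another gene. The 15 genes with over 80% of windows shared held 181 reads (0.294%). Reads placed in more than 1 site made up 9.21% to 11.5% of a library and are not in the gene counts. With the low-count filter removed, 60 histone genes were tested and Hist1h4k, with 53 reads in all, was called lower. In that fit 1569 of all 19124 genes were called lower.

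Of 41 genes of histone transcript synthesis, processing and decay, 3 were called higher and 0 lower in MaxKO, where 10.9% of all genes were higher and 12.2% lower, with a median log2 fold change of 0 beside 0 over all genes. The 3 were Pou2f1, which encodes the octamer-binding factor (0.45, SE 0.08, adjusted p = 0.00193), the RNA helicase gene Ddx19b (0.27, SE 0.07, adjusted p = 0.0183), and Ccnf, which encodes cyclin F, known to direct SLBP to degradation (0.41, SE 0.11, adjusted p = 0.0207). Slbp stood at 176, 179, 178 and 183 CPM in MaxKO 1 to 4 and at 165, 160, 175 and 178 CPM in Ctrl 1 to 4 (0.08, SE 0.06, adjusted p = 0.427). Npat had overlapping values (74.3 ± 7.54 against 73.4 ± 7.24 CPM, SD, n = 4 each) and a log2 fold change of 0.02 (adjusted p = 0.925). Neither Slbp nor Npat was called. Pou2f1 stayed called with any 1 library left out, while the count of 3 went to 1 without MaxKO 1 or Ctrl 1 and to 5 and 6 without Ctrl 3 and Ctrl 4. Against Ctrl 1 and 2, 8 were called higher and 7 lower, beside 22% of all genes higher and 22.6% lower. Against Ctrl 3 and 4, where 9.39% of all genes were higher, Pou2f1 (0.42) and Ddx19b (0.28) were called higher and Ccnf (0.22) was not.

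Histone variants, most of which are made outside S phase and from polyadenylated transcripts, were in the main not called. Of 11 tested, 1 was lower and 0 higher in MaxKO, where 23.1% of all genes were called, with a median of 0.04. The one called was H2afv, an H2A.Z gene, at 162, 146, 157 and 163 CPM in MaxKO 1 to 4 and at 245, 235, 179 and 166 CPM in Ctrl 1 to 4 (-0.39, SE 0.12, adjusted p = 0.0333). Its controls have the same order as most of the Hist genes, and its call was lost with any library but Ctrl 3 or Ctrl 4 left out (-0.31 to -0.42). It was -0.61 against Ctrl 1 and 2 (adjusted p = 1.1e-06) and -0.14 against Ctrl 3 and 4 (adjusted p = 0.264). The other H2A.Z gene, H2afz, stood at 1030 ± 68.3 against 992 ± 62.7 CPM (SD, n = 4 each) with a log2 fold change of 0.06 (adjusted p = 0.665). H2afx, whose protein marks DNA breaks and which can end at a stem-loop or in a poly(A) tail, stood at 186 ± 24.0 against 162 ± 26.2 CPM (0.20, SE 0.12, adjusted p = 0.265). The median ratio of Ctrl 1 and 2 to Ctrl 3 and 4 over the 11 variants was 1.29. Against Ctrl 1 and 2, 3 variants were called lower and 0 higher, beside 22.6% and 22% of all genes. Against Ctrl 3 and 4, 5 were called higher and 0 lower (H2afx, H3f3a, H1f0, H2afj and Cenpa), beside 9.39% and 11.3%.

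Among 25 histone chaperone genes, 3 were called higher and 0 lower, beside 10.9% and 12.2% of all genes, with a median of 0.08. They were Ipo4, which imports histones into the nucleus (0.53, SE 0.07, adjusted p = 0.00047), Hat1, which acetylates new H4 (0.25, SE 0.07, adjusted p = 0.0248), and Mms22l, which acts on new histones at replication forks (0.31, SE 0.09, adjusted p = 0.0343). Ipo4 stood at 129, 142, 129 and 146 CPM in MaxKO and at 91.3, 93.2, 102 and 91.7 CPM in Ctrl, without overlap, and it stayed called with any 1 library left out. The count of 3 went to 1 without MaxKO 1, 2 or 3 or Ctrl 2 and to 9 without Ctrl 3. Chaf1b, a subunit of the chaperone CAF-1 that deposits H3 and H4 at replication forks, had the reverse order among controls from the histone genes, at 82.0, 92.4, 150 and 130 CPM, with 146 to 161 CPM in MaxKO (0.41, SE 0.16, adjusted p = 0.0992). Against Ctrl 1 and 2, 13 chaperone genes were called higher and 0 lower, beside 22% and 22.6% of all genes. Hat1 at 0.24, Mms22l at 0.45 and Chaf1b at 0.79 were among the 13. Against Ctrl 3 and 4 Ipo4 (0.48) alone was called, beside 9.39% of all genes higher and 11.3% lower. Hat1 (0.24), Mms22l (0.17) and Chaf1b (0.09) were not called there.

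DNA replication genes, whose transcripts also peak around S phase, did not follow the histone genes among the controls. Of 43 tested, 7 were called higher and 0 lower in MaxKO, beside 10.9% and 12.2% of all genes, with a median of 0.16. Among them were the helicase subunits Mcm3 (0.47, SE 0.08, adjusted p = 0.00194) and Mcm2 (0.34, SE 0.07, adjusted p = 0.0056), the polymerase subunit Pola1 (0.44, SE 0.10, adjusted p = 0.00691) and the transcription factor E2f1 (0.45, SE 0.12, adjusted p = 0.0208). The count of 7 went to 4 without MaxKO 1, 2 or 4 or Ctrl 2, to 18 without Ctrl 3 and to 11 without Ctrl 4. Summed, the 43 genes stood at 8430, 8290, 8280 and 8150 CPM in MaxKO 1 to 4 and at 6550, 6530, 7830 and 7690 CPM in Ctrl 1 to 4. Ctrl 1 and 2, with the highest histone levels, thus had the lowest levels of replication genes. The mean of Ctrl 1 and 2 was below that of Ctrl 3 and 4 in 41 of the 43, with a median ratio of 0.830 against 1.92 in the histone genes. Against Ctrl 1 and 2, 30 of the 43 were called higher and 0 lower, beside 22% and 22.6% of all genes, with E2f1 at 0.73. Against Ctrl 3 and 4 Mcm3 (0.34), Mcm2 (0.28) and Pola1 (0.37) alone were called higher and 0 lower, beside 9.39% and 11.3%. E2f1 was at 0.21 there (edgeR adjusted p = 0.0911). Pcna, the sliding clamp of the replication fork, stood at 661 ± 36.6 against 626 ± 37.5 CPM (0.08, adjusted p = 0.528).

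**Figure D5:**
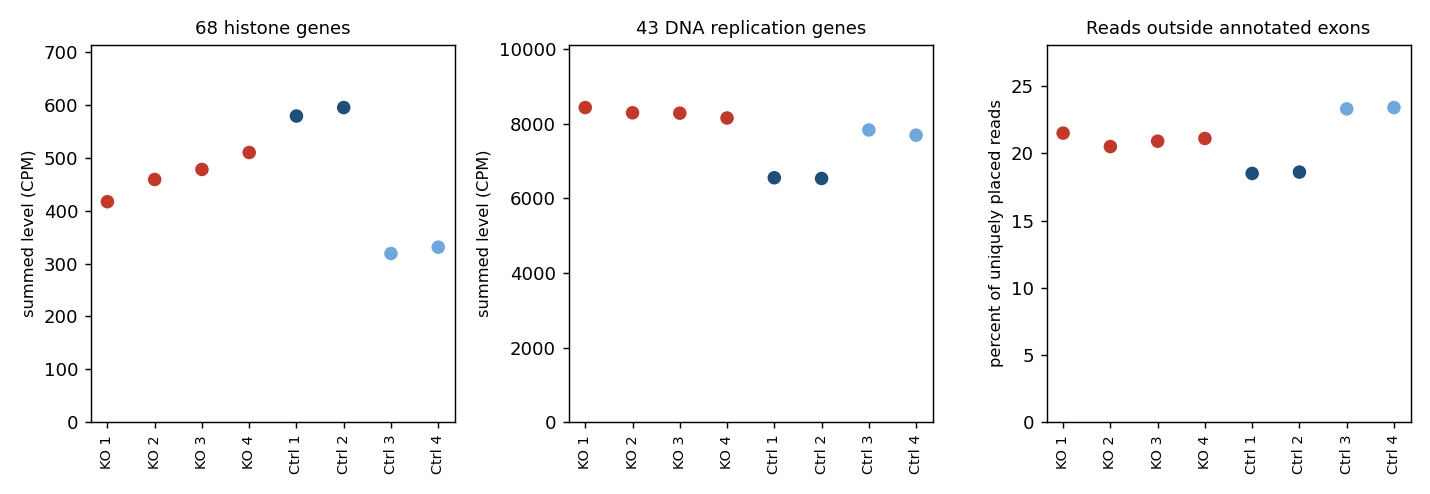
For each library (x axis), the summed level of the 68 histone genes (left, CPM), of the 43 DNA replication genes (middle, CPM) and the percent of uniquely placed reads outside annotated exons (right), all from 0. Ctrl 1 and 2 (dark blue) are highest on the left and lowest in the other panels, Ctrl 3 and 4 (light blue) the reverse except in the middle panel, where MaxKO (red) is highest.

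The telomerase RNA gene Terc, from a list of RNAs made without a poly(A) tail, had the order of the summed histone level. Of the histone reads, 84.5% lay in the 11 genes with AATAAA. Terc was low. It stood at 1.88, 2.12, 2.17 and 2.23 CPM in MaxKO 1 to 4 and at 2.67, 2.53, 0.586 and 0.673 CPM in Ctrl 1 to 4 (0.35, SE 0.42, adjusted p = 0.602). It was -0.32 against Ctrl 1 and 2 (adjusted p = 0.233) and 1.71 against Ctrl 3 and 4 (adjusted p = 0.00184). None of the 3 genes of that list that passed the filter (Terc, Malat1 and Neat1) was called by edgeR, and their unadjusted p-values were 0.425, 0.0612 and 0.784. With MaxKO 1 left out, Malat1 was called lower, and Terc was not called with any 1 library left out. In Malat1 the controls were not ordered in pairs, and in Neat1 the MaxKO libraries spanned all controls. The share of reads outside exons moved the opposite way to the histone levels across the controls. Its part in the histone levels, and that of RNA selection in the libraries, was not tested.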

How the data were processed

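The authors aligned the reads to mm9 with TopHat2 2.0.12 and counted them per gene with HTSeq 0.6.1, after bcl2fastq 1.8.4, per the submitters' processing notes. The deposited files hold raw counts per gene, 1 file a library. For the annotation, strand setting and RNA selection, the choice is not given in the sources used here. Rows that name no gene were left out of totals. Without a stated strand, reads of overlapping genes cannot be told apart.

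All genes were fitted together with edgeR 4.0.16 in R 4.3.3 (filterByExpr, TMM, robust quasi-likelihood, group only, Benjamini-Hochberg over 13358 genes, threshold 0.05). CPM use TMM-scaled totals. DESeq2 1.42.0 and limma 3.58.1 were alternatives, with other scalings, filters, covariates and libraries left out. A prior count of 2 entered the log levels used for correlations between libraries and was not set for the fold changes. The fit was tested on simulated counts. The members and lists were chosen with earlier results of these data known. Genes picked for levels by library were the 4 most abundant of each class, any called, and the 4 uncalled with the widest controls. From the other lists, those with the smallest p-values and 5 fixed references were picked. Some picked genes are given as ranges or means, or by log2 fold change alone. Transcripts (GENCODE M21) and promoters (RefSeq, GRCm38.p6) are of another build than mm9 and were matched by symbol only. No 2 libraries were duplicates.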

Additional observations from a re-analysis of the deposited data

Results flagged for a closer look

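In 112 groups of 4 values checked, 5 held 1 library far from the other 3, and chance alone gives about 1 in 20. Among histone genes, Hist1h1b stood at 2.36 CPM in MaxKO 4 against 1.36 to 1.46 in the other MaxKO libraries, and Hist1h3g at 1.15 CPM in MaxKO 4 against 0.261 to 0.398. Elsewhere, Mif4gd, which aids translation of histone transcripts, stood at 43.6 CPM in MaxKO 4 against 40.4 to 40.8. Chaf1b stood at 161 CPM in MaxKO 1 against 146 to 148, and H2afz at 899 CPM in Ctrl 4 against 1010 to 1040 in the other controls.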

How the results depend on the processing

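Low depth limits most members, and the choice of controls moved most values; the cause was not tested. With Ctrl 1 and 2 alone, 6068 genes were called, with 13 histone genes lower, 3 variants, 15 processing, 13 chaperone and 30 replication genes, and the log2 ratio was -0.33 for all histone genes, -0.19 for H2A and -0.40 for H2B. Signs then turned for Hist1h1b (-0.12), Hist1h1c (-0.21), Hist2h2be (-0.06), Hist3h2a (-0.18), Hist4h4 (0.20), H3f3a (-0.04), H1f0 (-0.03), Terc (-0.32) and Npat (-0.01). With Ctrl 3 and 4 alone, 3 histone genes were called higher, with 5 variants, 1 chaperone, 3 replication genes and 1 RNA without a poly(A) tail, and the log2 ratio was 0.52 for all, 0.77 for H1, 0.50 for H2A, 0.45 for H2B, -0.03 for H3 and 0.10 for H4. Signs then turned for Hist1h1a (0.28), Hist1h1d (0.58), Hist1h1e (0.26), Hist1h2ae (0.26), Hist1h2bc (0.15), Hist1h2be (0.07), Hist1h3g (0.12), Hist1h4h (0.64), Hist1h4i (0.46), Hist2h3c1 (0.13), Hist3h2ba (0.30), Neat1 (0.04) and Pcna (0.00). With the percentage of reads outside exons added to the fit, 2 histone genes were called higher and 3 lower, beside 2256 and 2167 of all genes. That fit also called 8 processing, 7 chaperone and 20 replication genes and 1 RNA without a poly(A) tail, and put Hist1h1d at 0.04. Without a filter, 1 histone gene was lower, beside 1569 of all 19124 genes. DESeq2 called 11 replication genes. Upper-quartile scaling shifted the median of all genes to -0.05, called 1160 genes higher and 1965 lower against 1457 and 1627 with TMM, called 5 processing genes and put Npat at -0.03.

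Leaving out 1 library at a time gave 0 to 4 histone genes lower and 0 higher, 2102 to 3743 genes in all, 0 to 1 variants, 1 to 6 processing, 1 to 9 chaperone and 4 to 18 replication genes and 0 to 1 RNAs without a poly(A) tail. Log2 fold changes that changed sign ran from -0.31 to 0.16 for Hist1h1a, -0.11 to 0.23 for Hist1h1b, -0.30 to 0.12 for Hist1h1d, -0.22 to 0.12 for Hist4h4, -0.22 to 0.04 for Neat1 and -0.05 to 0.06 for Npat.

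Same-numbered libraries did not deviate together (correlations of -0.2, -0.012, 0.002 and -0.107). With the replicate number as a block, 0 histone genes were called (1 at an unadjusted p of 0.05), with 1208 genes higher and 1324 lower, 0 variants and 1 chaperone gene.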
